A study of Caenorhabditis elegans with 6 samples.

Results

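*C. elegans* lives on bacteria and defends itself largely with secreted effector proteins, and the genes described here encode several families of them. The members are all genes whose symbol begins with *lys*, *ilys*, *spp*, *abf*, *cnc*, *fip* or *fipr* and whose counts summed to at least 10 over the 6 libraries. Of the 99 genes with such symbols 62 met this rule, out of 46726 genes counted in all. They comprise 9 of 10 *lys* genes, 5 of 6 *ilys*, 24 of 30 *spp*, 4 of 6 *abf*, 8 of 11 *cnc*, 3 of 7 *fip* and 9 of 29 *fipr* genes. Just inside the limit lay *cnc-6*, *cnc-11* and *lys-5*, with 10, 12 and 15 summed counts, and just outside it *fipr-23*, *fipr-24* and *fipr-28*, with 9, 8 and 6.

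Both strains were whole animals kept at 20 °C and collected on day 2 of adulthood, day 5 from hatch. One was the wild type N2 and the other *mbl-1(tm1563)*, a deletion mutant of the muscleblind-like splicing factor gene *mbl-1*, with 3 biological replicates of each. All animals, controls included, grew on HT115 bacteria with an empty RNAi vector and, from the L4 stage, on 10 µM 5-fluorouracil, which keeps progeny from hatching. No pathogen was used, so the levels are those on a laboratory food bacterium, and in RNA of whole animals fewer cells of a type and less RNA per cell cannot be told apart.

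Lysozymes cleave the peptidoglycan of bacterial cell walls, and nematodes have one group that resembles lysozymes of protists (*lys*) and another of the invertebrate type (*ilys*). Saposin-like proteins (*spp*), also called caenopores, resemble amoebapores, which open pores in bacterial membranes. The *abf* genes encode defensin-like antibacterial factors. Caenacins (*cnc*) and the fungus-induced peptides and their relatives (*fip*, *fipr*) are small secreted peptides, several of which the epidermis makes in answer to fungal infection or wounding. Much of this output is known to be set by p38 MAP kinase signalling, by TGF-beta signalling through DBL-1 and by GATA factors of the intestine and epidermis.

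Each library held between 17574738 and 20750318 gene counts and detected 17078 to 17564 genes. *mbl-1* itself had 233, 245 and 228 counts in N2 and 70, 138 and 106 in the mutants (log2 fold change -1.14, standard error 0.23, edgeR adjusted p = 0.0342), and the deleted sequence belongs to the counted gene. The N2 libraries lay close together (chi-square per degree of freedom between pairs 3.84 to 8.95), and mutant replicate 1 stood apart from mutant replicates 2 and 3 (59.9 and 24.7, against 12.4 between those). Its difference ran with transcript length. Relative to the other mutant libraries it was higher by a median of 0.19 on the log2 scale among tested genes with exons under 600 bases and lower at 3000 bases or more (median -0.37), and replicate 2 leaned the opposite way (-0.13 and 0.34). This touches the effector genes directly, because they are short. Their exons have a median length of 475.5 bases (258 to 1518), against 1439 bases for all tested genes.

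Levels are given in CPM (counts relative to the library total after TMM scaling) and, where genes are compared with each other, in CPM per kb of exon. The families differed widely in abundance. Together the 62 genes took 0.304 to 0.318% of all counts on genes in N2 and 0.330 to 0.456% in the mutants. The *spp* genes made up the largest share of this, with summed levels of 1588, 1616 and 1594 CPM in N2 replicates 1 to 3 and 2001, 1544 and 1612 CPM in the mutants. The *lys* genes summed to 736.6, 834.1 and 756.9 CPM in N2 and to 1202, 983.7 and 1059 CPM in the mutants, so that every mutant library lay above every N2 library. For the *ilys* genes the sums were 715.8, 738.9 and 723.4 CPM against 892.8, 806.2 and 827.3 CPM, again without overlap. The peptide families were far lower. Summed *cnc* levels were 25.9 to 32.2 CPM in N2 and 18.2 to 25.99 CPM in the mutants, *fip* levels 21.5 to 23.6 and 13.1 to 19.7 CPM, *fipr* levels 31.7 to 32.8 and 22.04 to 36.8 CPM, and *abf* levels 6.32 to 6.98 and 8.52 to 9.63 CPM. In every family sum mutant replicate 1 was the highest of the mutant libraries.

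**Figure D1:**
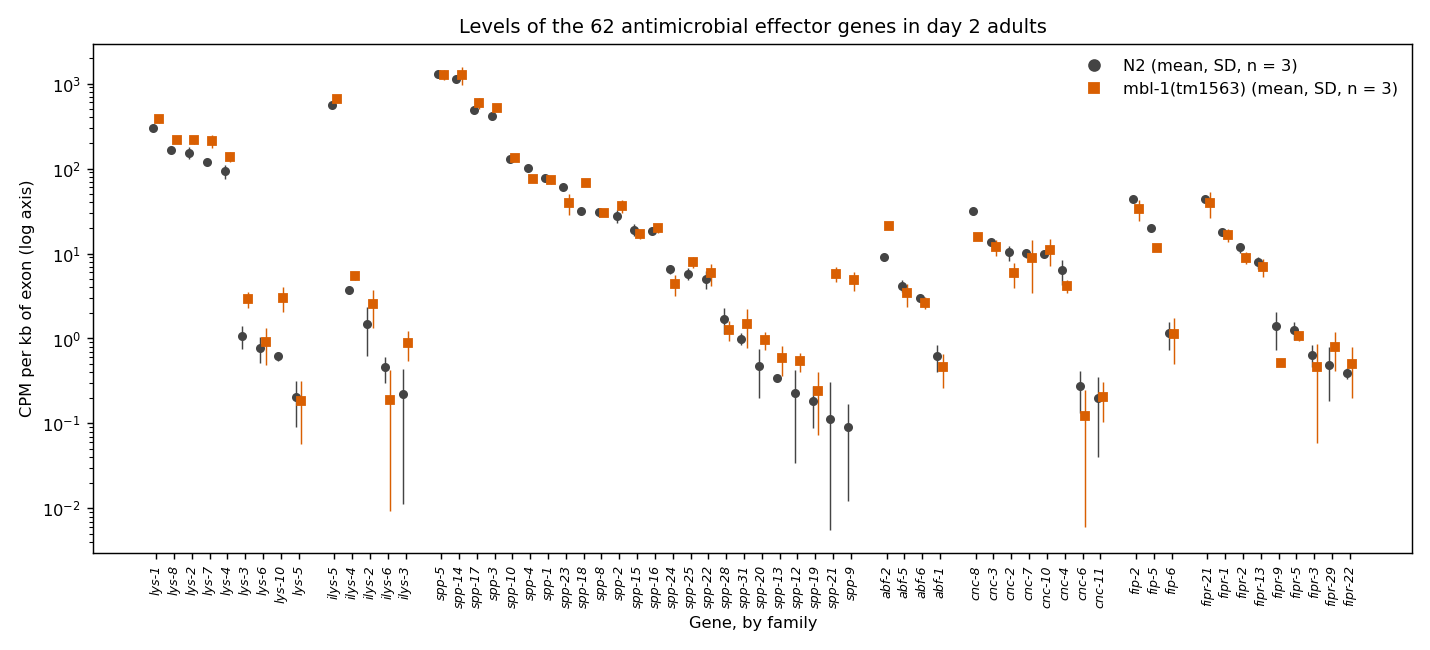
CPM per kb of exon (log axis) of all 62 genes, grouped by family and ordered by their N2 level, as means with SD over 3 libraries of N2 (circles) and of *mbl-1(tm1563)* (squares); lower bars that would pass 0 end just above it. *spp-5* and *spp-14* stand highest in both strains, above 1000 CPM per kb, and *spp-9* and *spp-21* are the lowest *spp* genes in N2 but near 5 CPM per kb in the mutants.

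The most abundant transcripts were those of *spp-5*, an antibacterial caenopore, and *spp-14*. Per kb of exon *spp-5* stood at 1283 ± 36.1 CPM in N2 and 1261 ± 170 in the mutants, and *spp-14* at 1136 ± 77.4 and 1266 ± 298 (SD, n = 3). The next in N2 were *ilys-5* at 562.3 ± 9.38, *spp-17* at 492 ± 53.7 and *spp-3* at 418.5 ± 49.7 CPM per kb, followed by *lys-1* at 303.2 ± 12.9 and *lys-8* at 163.6 ± 6.98. *spp-17* and *spp-3* overlap within their SDs, as do *spp-5* and *spp-14* in the mutants, so the order within those pairs is not resolved. *spp-10*, which encodes a protein with several saposin domains like a prosaposin, stood at 128 ± 3.57 CPM per kb in N2 and 133.8 ± 11.7 in the mutants. Outside these 2 lysozyme families and the caenopores, the highest N2 levels per kb were those of *fip-2* (44.1 ± 1.83), *fipr-21* (43.9 ± 2.05) and *cnc-8* (31.7 ± 3.33).

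The comparison of the strains asks which of these effector transcripts differ when the splicing factor is lost. Of the 62 genes 46 passed the filter on low counts and were tested in edgeR's quasi-likelihood framework, p-values being adjusted after Benjamini and Hochberg over all 12335 genes that passed. In this test 6 were higher in the mutants by at least 2-fold at an adjusted p under 0.05 (0.697% of all tested genes were called higher) and 1 was lower (1.14% of all). Of the 6, *spp-9*, *spp-21* and *lys-10* had under 10 counts in every N2 library and passed the filter only through the mutant libraries in which they are high, so their share of the tested members is not read as a result. Among the 39 members with at least 10 counts in every library 3 were called higher (0.562% of all genes so filtered) and 1 lower (1.04%). Without a limit on the fold 8 rose, the same 3 scarce genes included (1.79% of all tested genes did), and 3 fell (3.67% of all). The 3 mutant libraries all lay above the 3 N2 libraries in 15 of the 46, those 3 again among them (14.7% of all tested genes), and all below them in 6 (17.9% of all). The log2 fold change was above 0 in 25 of the 46, the 3 included (44.8% of all), with a median of 0.15 beside -0.04 over all genes tested.

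**Figure D2:**
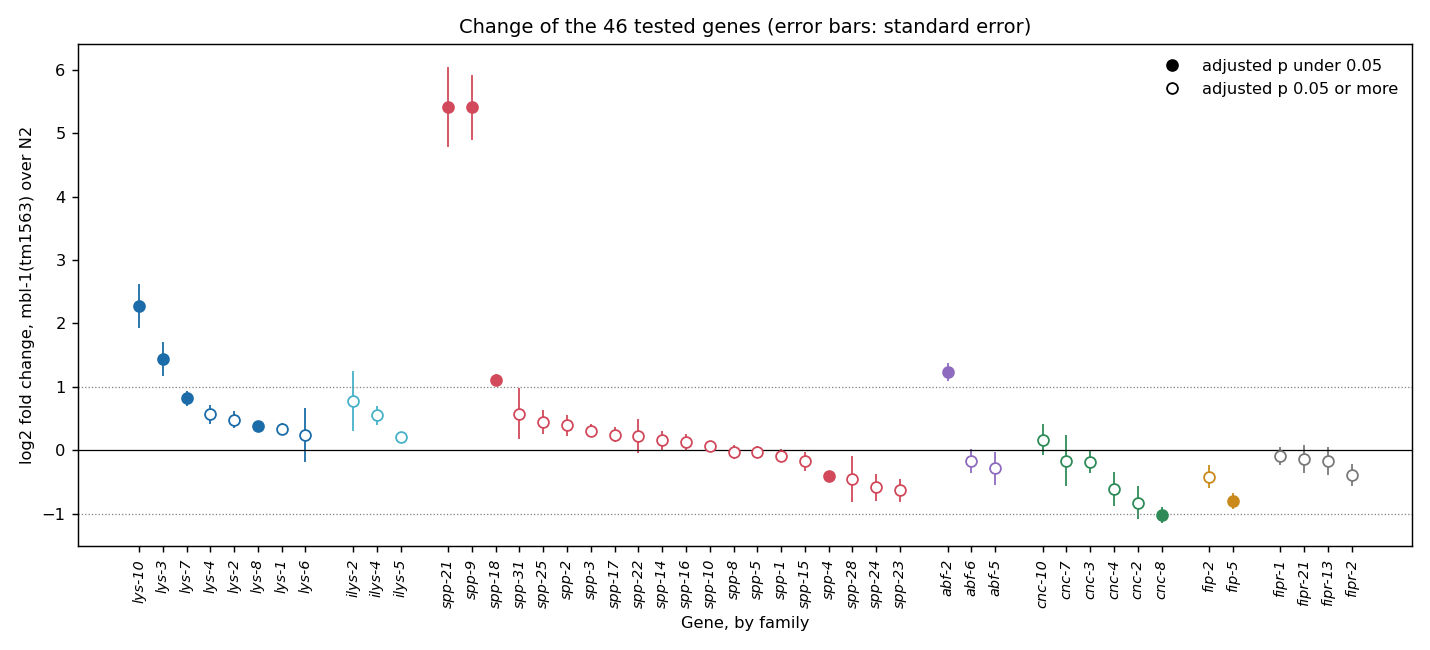
Log2 fold change of *mbl-1(tm1563)* over N2 with its standard error for the 46 tested genes, by family; filled circles have an adjusted p under 0.05 and the dotted lines mark 2-fold. All 8 *lys* genes and all 3 *ilys* genes lie above 0, the *spp* genes lie on both sides, and 5 of 6 *cnc* genes lie below 0; *spp-9* and *spp-21* have 2 counts each over all N2 libraries, so that their fitted values near 5.4 are loosely fixed.

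Among the *lys* genes all 8 that were tested had a positive log2 fold change (median 0.53, 44.8% of all tested genes being above 0). Of the 8, 4 passed the test, *lys-3*, *lys-7*, *lys-8* and *lys-10* (1.79% of all tested genes were higher at the adjusted p). *lys-10* is included in both counts although it passed the filter only through the mutant libraries. Without N2 replicate 2 and without mutant replicate 2 *lys-6* was negative and the split was 7 to 1. *lys-7*, a lysozyme with a known part in resistance to bacterial infection, was measured at 107, 110 and 106 CPM in N2 and at 227, 171 and 173 CPM in the mutants. The mutant libraries lay well above the tightly grouped N2 libraries, replicate 1 the highest. Its log2 fold change was 0.82 (standard error 0.12, edgeR adjusted p = 0.00942). *lys-8*, another abundant lysozyme with a known immune role, had 152, 158 and 166 CPM in N2 and 214, 202 and 207 CPM in the mutants. The step was small but the libraries were separate (log2 fold change 0.39, standard error 0.07, edgeR adjusted p = 0.0169), and 38 bases of its exons overlap *C17G10.13*. The adjusted p of *lys-8* passed in 2 of the 6 fits with a library left out.

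Both *lys* genes called at 2-fold were scarce. *lys-10* had 7, 9 and 8 counts in N2 and 54, 25 and 38 in the mutants, or 0.43 ± 0.054 and 2.10 ± 0.688 CPM (SD, n = 3). The lowest mutant library held more than double the counts of the highest N2 library, and replicate 1 again was highest. Its log2 fold change was 2.28 (standard error 0.35, edgeR adjusted p = 0.0117). *lys-3* had 15, 28 and 24 counts in N2 and 78, 51 and 51 in the mutants, a log2 fold change of 1.43 (standard error 0.27, edgeR adjusted p = 0.0244). With each library left out in turn, both were called in 2 of the 6 fits, those without mutant replicate 1 and without mutant replicate 2, and with N2 replicate 1 left out, for instance, the edgeR adjusted p was 0.0737 for *lys-10* and 0.098 for *lys-3*.

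*lys-3* is the scarce neighbour of abundant genes. It lies in a cluster of 5.64 kb on chromosome V (WBcel235) with *lys-1* and *lys-2*, 625 bases from *lys-2*. *lys-1* had 283, 305 and 285 CPM in N2 and 410, 334 and 362 CPM in the mutants, and *lys-2* 130, 170 and 130 CPM against 221, 179 and 202 CPM. In both the strains did not overlap, yet neither passed the test (log2 fold change 0.34 and 0.48, edgeR adjusted p = 0.0702 and 0.0714). The same holds for *lys-4* on chromosome IV (0.57, edgeR adjusted p = 0.0751). With DESeq2 7 of the 8 *lys* genes had an adjusted p under 0.05 with no limit on the fold. The exception was *lys-6*, which had 7 to 17 counts in every library and overlapping strains. The share of all genes that passed with DESeq2 was not taken, so this count is not read as a result about the family.

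The invertebrate-type lysozymes were carried almost wholly by *ilys-5*, at 711, 735 and 720 CPM in N2 and 886, 801 and 821 CPM in the mutants. The groups were separate, and the log2 fold change of 0.21 (standard error 0.07) had an edgeR adjusted p of 0.122. *ilys-4* stood at 2.80, 3.28 and 2.78 CPM against 4.40, 3.86 and 4.75 CPM (log2 fold change 0.55, edgeR adjusted p = 0.0811). Thus no *ilys* gene of the 3 tested passed edgeR's test or had a DESeq2 adjusted p under 0.05, while 2 had an unadjusted p under 0.05. *ilys-3*, known as an inducible lysozyme of the intestine and pharynx, had 4, 0 and 2 counts in N2 and 5, 8 and 11 in the mutants and was not tested.

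Among the caenopore genes the log2 fold changes ran from -0.63 to 5.42, the highest in *spp-9* and *spp-21*, which were scarce in N2. Of the 20 tested, 3 rose at least 2-fold, *spp-9*, *spp-21* and *spp-18*, and 1 fell by less, *spp-4*. Of these *spp-9* and *spp-21* passed the filter only through the mutant libraries. The median log2 fold change was 0.15 with 12 values above and 8 below 0, a split that moved to 14 and 6 with the RLE scaling, to 15 and 5 with library size alone, and to 10 and 10 with a median of -0.0014 without mutant replicate 1. The strain difference of *spp-9* and *spp-21* was close to absence against presence. *spp-9* had 1, 1 and 0 counts in N2 and 25, 39 and 35 in the mutants. *spp-21* had 2, 0 and 0 counts in N2 and 34, 26 and 40 in the mutants. Summed over libraries and scaled by depth, the ratio of mutant to N2 was 50.1 for *spp-9* and 50.6 for *spp-21*. The 95% exact counting intervals, 13.5 to 419.7 and 13.7 to 423.9, cover counting error only. Such ratios were taken for members picked by low counts in one strain and higher counts in the other, so they are a description. The edgeR adjusted p was 0.000675 and 0.00166. Because both genes passed the filter only through the mutant libraries, these values are not read as support. Neither gene had mutant replicate 1 as its highest library. Even so their mutant levels, 1.81 ± 0.469 and 1.81 ± 0.356 CPM (SD, n = 3), remained low beside those of *spp-5* or *spp-14*.

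*spp-9*, known as a gene that DBL-1 signalling holds down, and *spp-21* are next to each other on the plus strand of chromosome X (11487784 to 11488203 and 11490130 to 11490494, WBcel235), with 1926 bases between them. Beyond *spp-21*, 592 bases away on the opposite strand, lies *T25C12.3*, like *lin-14* chosen after its values were seen. It moved the other way, with 7008, 8969 and 7088 counts in N2 and 894, 2208 and 1479 in the mutants (log2 fold change -2.29, standard error 0.32, edgeR adjusted p = 0.00914). On the other side lies *lin-14*, which had 177, 147 and 169 counts in N2 and 54, 140 and 88 in the mutants and did not pass the test (edgeR adjusted p = 0.196). The reads were counted without regard to strand, and no annotated exon of either neighbour overlaps the *spp* genes.

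*spp-18* had 296, 296 and 228 counts in N2 and 627, 534 and 585 in the mutants. In CPM this was 15.6, 14.7 and 13.5 against 32.5, 30.3 and 31.9, 2 tight groups far apart. The log2 fold change was 1.11 (standard error 0.09, edgeR adjusted p = 0.00156). It lies alone on chromosome IV, from 9593712 to 9594413, with no other member within 20 kb.

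By contrast, *spp-4* fell, at 43.0, 43.7 and 40.3 CPM in N2 and 34.7, 30.9 and 29.9 CPM in the mutants (log2 fold change -0.41, standard error 0.09, edgeR adjusted p = 0.0369). The groups did not overlap, but *spp-4* no longer passed the adjusted p when any single library other than mutant replicate 1 was left out. Nor did it pass under other scalings (edgeR adjusted p = 0.0525 with RLE, 0.135 with library size alone). It stands in a run of 4 caenopore genes over 5.39 kb on chromosome X, all on the minus strand. The others in this run were *spp-3* at 129, 162 and 139 CPM in N2 and 195, 167 and 172 in the mutants (log2 fold change 0.31), *spp-2* (0.40) and *spp-5* (-0.02). None of these 3 passed the test (edgeR adjusted p = 0.127, 0.208 and 0.897), and neighbours in this run therefore had values of both signs.

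*spp-5* had 474, 488 and 462 CPM in N2 and 539, 432 and 428 CPM in the mutants, with N2 values inside the span of the mutant ones. Similarly *spp-14* had 434, 380 and 400 CPM in N2 and 572, 374 and 406 in the mutants, a difference carried by replicate 1 (log2 fold change 0.16, edgeR adjusted p = 0.554, and -0.05 without that library). *spp-1*, which like *spp-5* encodes an antibacterial caenopore of the intestine, *spp-8*, *spp-10* and *spp-16* all had log2 fold changes between -0.08 and 0.14 with overlapping libraries.

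**Figure D3:**
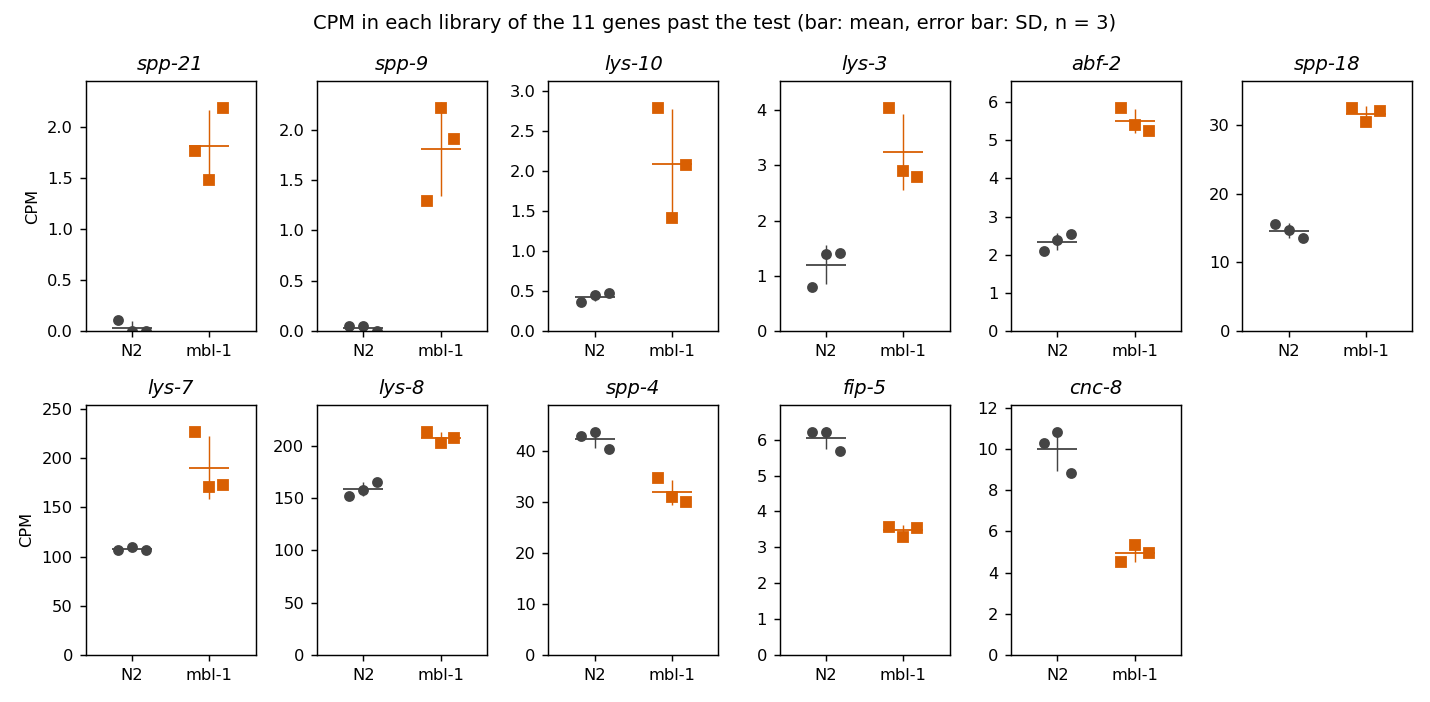
CPM in each library (axes from 0) of the 11 genes past the test, with the mean and SD of each strain (n = 3), ordered from the highest to the lowest log2 fold change. The strains do not overlap in any panel; mutant replicate 1, the left square of each panel, is highest of the mutants in 8 of the 11 and not in *spp-9*, *spp-21* and *cnc-8*.

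Of the defensin-like factors 3 were tested, and 1 of them, *abf-2*, rose. *abf-2*, a peptide known from the pharynx, had 40, 48 and 43 counts in N2 and 113, 95 and 96 in the mutants, which is 2.35 ± 0.219 and 5.50 ± 0.317 CPM (SD, n = 3). The lowest mutant library had about double the counts of the highest N2 library (log2 fold change 1.23, standard error 0.14, edgeR adjusted p = 0.00462). *abf-1*, 181 bases away, had 2 to 5 counts in every library and was not tested. Both lie on chromosome I within the span of *C50F2.2* on the opposite strand. That host gene had 1988, 1929 and 1754 counts in N2 and 1812, 1893 and 1919 in the mutants (log2 fold change 0.01, edgeR adjusted p = 0.967), and its exons share no base with those of *abf-2*. *abf-5* and *abf-6* overlapped between the strains (log2 fold changes -0.29 and -0.17, edgeR adjusted p = 0.513 and 0.603).

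In the peptide families most tested genes had values below 0, some of them small. In the *cnc*, *fip* and *fipr* families 11 of 12 tested genes had a negative log2 fold change, *cnc-10* being the exception (0.17, and -0.16 without mutant replicate 1), although *fipr-1* was at 0.00 with library size alone and 3 of 4 *fipr* genes were positive without mutant replicate 2. Over all tested genes 44.8% had a log2 fold change above 0. The values of *fipr-1*, *fipr-21* and *cnc-7* were only -0.09, -0.14 and -0.16. Of the 12 peptide genes, *cnc-8* and *fip-5* fell at the adjusted p (3.67% of all tested genes did). *cnc-8*, a caenacin, had 195, 218 and 149 counts in N2 and 87, 94 and 91 in the mutants, 9.99 ± 1.05 and 4.94 ± 0.419 CPM (SD, n = 3). The groups were well apart, and the log2 fold change was -1.02 (standard error 0.13, edgeR adjusted p = 0.00708). This lies just past 2-fold, and other scalings and looser filters put it just short (-0.94 with library size alone). *fip-5* had 6.23, 6.22 and 5.68 CPM in N2 and 3.57, 3.29 and 3.55 CPM in the mutants, again 2 separate groups (log2 fold change -0.80, standard error 0.12, edgeR adjusted p = 0.0129).

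*fip-5* and *cnc-8* are the outer genes of a cluster of 4.21 kb on the plus strand of chromosome X, and between them lies *fipr-21*. *fipr-21* had 14.9, 15.5 and 14.1 CPM in N2 and 18.5, 9.66 and 12.34 in the mutants. Mutant replicate 1 was above all N2 libraries and the other mutants below all of them, so that the middle gene did not pass (log2 fold change -0.14, edgeR adjusted p = 0.711). Without replicate 1 its value was -0.43, with an edgeR adjusted p of 0.0479.

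*cnc-2*, a caenacin known to be induced through DBL-1 after fungal infection, had 68, 89 and 50 counts in N2 and 55, 29 and 31 in the mutants (log2 fold change -0.82, standard error 0.26, edgeR adjusted p = 0.108). Replicate 1 was the highest mutant library here too, and in the fit without it *cnc-2* was called lower while *cnc-8*, at -0.96, was short of 2-fold. *cnc-2* belongs to a cluster on chromosome V with *cnc-3* (-0.19), *cnc-4* (-0.61) and the barely detected *cnc-11*, none of which passed the test. Among the tested members *cnc-7* varied most within a strain after *spp-9* and *spp-21*, with 80, 39 and 20 counts in the mutants against 52, 63 and 42 in N2 (edgeR adjusted p = 0.823). Among the other abundant peptides, *fip-2* had 15.8, 16.8 and 15.5 CPM in N2 and 15.6, 9.09 and 11.2 in the mutants, and *fipr-1* 7.13, 6.77 and 6.80 against 7.76, 5.74 and 5.95. Neither passed the test (edgeR adjusted p = 0.220 and 0.731). *fipr-9*, not tested, had 13, 7 and 5 counts in N2 and 3 in each mutant library, a depth-scaled ratio of N2 to mutant of 2.74 (95% exact counting interval 1.24 to 6.68, for counting error only). It is named because of these low mutant counts, so the ratio is a description.

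Mutant replicate 1 was the highest of the mutant libraries in 36 of the 46 tested members (78.3%, against 40.9% of all tested genes). Its median log2 difference from the other mutant libraries was 0.30 over the members, while that of replicate 2 was -0.22. With replicate 1 left out, the 6 genes called higher were still called, and in all 17 members passed the adjusted p, 9 higher and 8 lower. The members with a positive log2 fold change then numbered 22 of 46, where they were 25 with all libraries, and their median was -0.02. In that fit 8 of 8 *lys* values were positive and 6 of 6 *cnc* values negative. Without mutant replicate 2 the *lys* values were 7 positive and 1 negative, and without mutant replicate 3 the *cnc* values were 2 positive and 4 negative. With each library's trend against exon length removed, 12 members were higher and 5 lower at the adjusted p, and the same 6 and 1 were called at 2-fold. The shares of all genes past the adjusted p in these fits were not taken, so the counts are not read as results about the members.

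**Figure D4:**
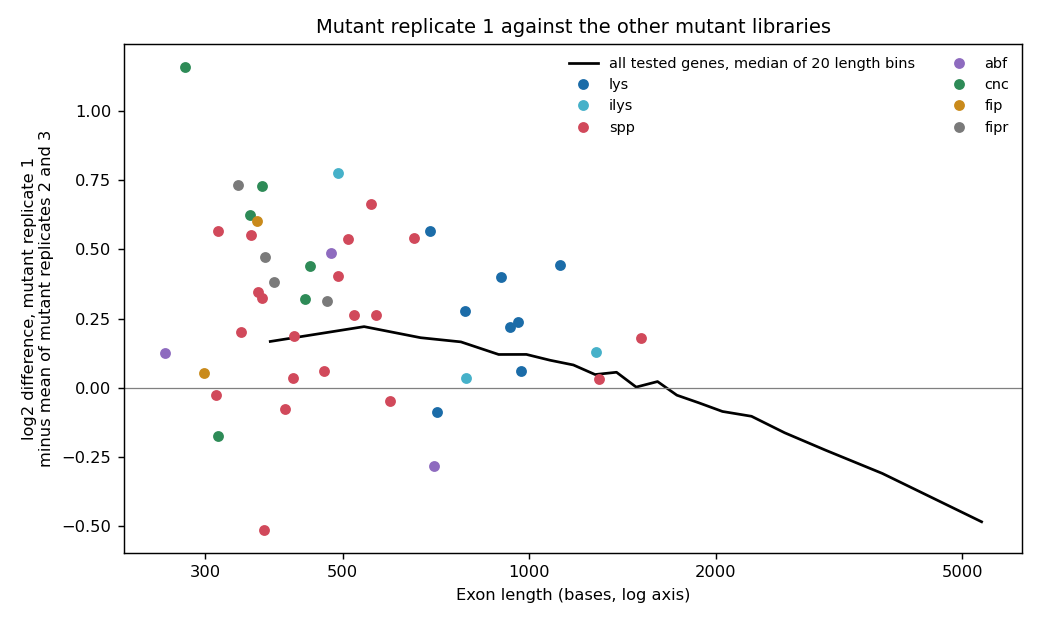
Log2 difference between mutant replicate 1 and the mean of mutant replicates 2 and 3 against exon length (log axis), for the 46 tested effector genes (points, by family) and as the median of 20 bins of all tested genes (line). The line runs from 0.17 in the bin of shortest genes to -0.48 in that of the longest, and most effector genes lie above it, among them *spp-14* at 0.55, while *spp-9* lies at -0.51.

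The 62 members were unevenly placed on the chromosomes, with 20 on V (32.3%, where V holds 18.7% of tested genes), 16 on X (25.8%, against 14.5%) and 2 on II. Counting members within 20 kb of another, 35 of the 62 (56.5%) fell into 14 clusters of 2 to 4 genes, and no like share was taken for other genes. Within some the direction was shared, as in *spp-9* and *spp-21*, *lys-1* to *lys-3*, or *cnc-2* to *cnc-4*. All 8 tested *lys* values were positive and 5 of 6 *cnc* values negative, so a shared sign in those families is not particular to neighbours. In other clusters the signs differed. *spp-17* and its neighbour *spp-23* on chromosome I had log2 fold changes of 0.25 and -0.63, neither past the test. Of the 62, 7 have exons that overlap another gene, by 243 bases in *spp-15* and less in the rest, and their counts are uncertain for that reason. Reads that aligned to several places were left out of the counts, 9.74 to 9.87% of reads in N2 and 7.34 to 8.08% in the mutants, so members with near-identical copies may be undercounted.

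Genes known to control these effectors were measured alongside. Of 47 listed regulators and companion peptides 46 were tested, and 1, *elt-3*, a GATA factor of the epidermis, passed edgeR's test. It had 11.1 ± 0.613 CPM in N2 and 6.96 ± 0.897 CPM in the mutants (SD, n = 3, log2 fold change -0.67, edgeR adjusted p = 0.0263). The median of the 46 was -0.18, beside -0.04 over all genes. None of the listed genes was higher at the adjusted p with edgeR or with DESeq2, and DESeq2 had 2 lower, *elt-3* and *hlh-30*, a factor for autophagy and host defence genes (DESeq2 adjusted p = 0.00346 and 0.0481). At an unadjusted edgeR p under 0.05 there were 2 higher and 12 lower of the 46 (9.79% and 14.1% of all tested genes). In the p38 cascade *pmk-1*, the kinase itself, had a log2 fold change of 0.01 and *nsy-1*, a kinase upstream of it, -0.47 (edgeR adjusted p = 0.971 and 0.163). The 7 genes of the TGF-beta list had a median of -0.16, and none passed the test. *dbl-1*, the TGF-beta ligand, was at -0.16, and *sma-3*, one of its Smads, at 0.26, the only positive value of that list. *elt-2*, the main intestinal GATA factor, was at -0.17 and did not pass either. The 7 *nlp* genes of the epidermal peptide group, which respond to fungi together with *cnc* genes, had a median of -0.15, and none passed edgeR's or DESeq2's adjusted p or an unadjusted edgeR p of 0.05.

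Markers of tissues, those that make these effectors among them, were measured in the same libraries. Summed over the intestinal marker list they reached 1759 to 1840 CPM in N2 and 1318 to 1782 CPM in the mutants, and 0 of 7 passed edgeR's or DESeq2's adjusted p (2 lower at an unadjusted edgeR p under 0.05). The list of the pharynx, where *abf-2* is known to be made, summed to 63.3 to 68.2 CPM in N2 and 45.4 to 53.4 CPM in the mutants. Its myosin genes *myo-1* and *myo-2* had log2 fold changes of -0.87 and -0.60, and its other tested genes lay between -0.13 and -0.08. None of the 6 tested genes of the pharyngeal list passed edgeR's adjusted p, but 2 were lower with DESeq2. The epidermal and seam list summed to 402.3 to 439.9 CPM in N2 and 350 to 388.1 CPM in the mutants. Of its 6 tested genes *elt-3*, also counted among the regulators above, and *grd-3* fell. The others had log2 fold changes of both signs, *rol-6* 1.17, *dpy-7* 0.45, *lin-26* -0.03 and *col-19* -0.17, and none of these passed edgeR's test. The list with the lowest median was that of body wall muscle (-0.58, 5 of 5 values negative), which summed to 660.5 to 741.7 CPM in N2 and 348 to 577.3 CPM in the mutants. Of its genes the myosins *myo-3* and *unc-54* fell (log2 fold change -0.65 and -0.58, edgeR adjusted p = 0.0132 and 0.0411). *opt-2* of the intestinal list was not found under that symbol, and none of the other listed markers was at 0 in all libraries. The part of tissue make-up in the differences of *abf-2*, *cnc-8* and *fip-5* was not tested.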

How the data were processed

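The 6 libraries were grouped by the genotype in their labels. From stranded poly(A) libraries the authors aligned reads with STAR to the WBcel235 transcriptome and counted them with HTSeq, and the deposited values are raw counts per gene, marked in the deposit as not stranded. Symbols, positions and exon lengths came from Ensembl release 115 of that assembly, which held 99.2% of the identifiers. Reads outside genes, ambiguous or aligned to several places (8.88 to 11.2% per library) stayed out.

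In R 4.3.3, edgeR 4.0.16 was run with filterByExpr (minimum count 10, minimum total 15), TMM scaling, the robust quasi-likelihood test with strain as the only factor, and Benjamini-Hochberg adjustment over 12335 genes. All its tests are two-sided, and "edgeR adjusted p" stands for this test and adjustment. Calls required an adjusted p under 0.05 together with a 2-fold change. Depth limits scarce genes: 16 members with summed counts of 10 to 54 were not tested.

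Members and lists were chosen with earlier results of these data known. Named are the members past the adjusted p, the 2 of each family with the highest N2 level per kb, those with at most 3 counts in every library of one strain and more than 10 in a library of the other, members within 20 kb of one past the test, and the 3 most variable within a strain. Others were chosen after their values were seen. Alternatives were DESeq2 1.42.0, other scalings and filters, a replicate block, a length correction (lowess, span 0.5, prior count 2), non-robust estimation, other limits, each library left out and, added after seeing the data, a dispersion trend estimated first.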

Additional observations from a re-analysis of the deposited data

How the results depend on the processing

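The 6 genes called higher stayed called with DESeq2, the RLE scaling, library size alone, no filter, at least 10 counts summed, the length correction, non-robust estimation and a dispersion trend estimated first. With at least 10 counts in every library 3 were called, since *lys-10*, *spp-9* and *spp-21* were no longer tested, and at an adjusted p under 0.01 there were 4 higher and 1 lower. *cnc-8* fell short of 2-fold, leaving 0 genes called lower, with DESeq2, the RLE scaling, library size alone, no filter and at least 10 counts summed, although its DESeq2 and edgeR adjusted p stayed under 0.05 in each of these. With no limit on the fold 3 were lower. The length correction brought the genes past the adjusted p from 11 to 17. With each library left out in turn 4 to 6 were called higher, 0 to 1 lower, and 5 to 17 passed the adjusted p. *spp-18* and *abf-2* were called in all 6 of those fits. So were *spp-9* and *spp-21*, but these passed the filter only through the mutant libraries in which they are high. Their repeated calls are therefore not read as support. *lys-7* passed in 4, *lys-8* and *fip-5* in 2, and *spp-4* in 1. Shares of all genes were not taken for DESeq2, the other scalings, the looser filters, the length correction, the replicate block and the left-out libraries. The counts from these fits describe the members only.

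The labels number the replicates alike in both strains, but deviations of same-numbered libraries correlated at 0.158, 0.0134 and 0.145, and N2 replicate 2 correlated better with mutant replicate 1 (0.0342), so the numbers were not taken as pairs. With a replicate block 5 were called higher and 1 lower and 8 passed the adjusted p; *lys-3* was no longer called, and *lys-8* (adjusted p = 0.051) and *spp-4* (0.0617) no longer passed. With the block and the length correction 6 and 1 were called and 15 passed.

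The sign turned under some alternative in 11 of the 46 tested genes, none of them past the threshold with all libraries, and 5 of the 11 are named by the rule. *spp-5* went to 0.01 with DESeq2, RLE, no filter and at least 10 counts summed and to 0.06 with library size alone, and with single libraries left out it ran from -0.14 to 0.08. In the same fits *spp-14* ran from -0.05 to 0.32, *cnc-7* from -0.77 to 0.19, *fipr-1* from -0.24 to 0.04 and *fipr-21* from -0.43 to 0.10, the last past the adjusted p without mutant replicate 1. *fipr-1* went to 0.00 with library size alone. The other 6 were *lys-6*, *spp-1*, *spp-8*, *spp-22*, *cnc-10* and *fipr-13*, whose turned values lay between -0.16 and 0.08. The cause of these turns was not tested. At this depth genes with counts near 10 per library, such as *lys-6* and *spp-28*, have standard errors of 0.43 and 0.37 on the log2 scale, so that differences under 2-fold in them were not detectable.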
